A study of Xenopus laevis with 3 samples.

Results

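Complement, coagulation and serpin genes were followed in the livers of female African clawed frogs (Xenopus laevis) given artemisinin, pregnenolone or the solvent DMSO. The genes were picked by their symbols in the array's annotation, by a rule that uses no measured value but was written with earlier results of these data known. The names sought were those of the complement components and factors, the coagulation factors, fibrinogen chains and a few other plasma proteins, and every serpin. The search found 62 probe sets for 53 gene copies of 43 distinct gene names, out of 11303 gene copies with a symbol on the array. Of the 53, 18 belong to complement, 14 to coagulation and other plasma proteins and 21 to the serpins. The genome of this species was doubled, and many genes have a copy on the longer chromosome of a pair of related chromosomes (.L) and another on the shorter one (.S). Of the copies measured, 36 are .L and 17 are .S. A copy with more than 1 probe set is given by the probe set with the highest mean over the arrays.

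The study looked for genes under the control of xlCAR, which is the Xenopus laevis counterpart of the constitutive androstane receptor. Artemisinin, an antimalarial drug, was injected into the body cavity at 200 mg/kg, and pregnenolone, the steroid from which the steroid hormones are made, at 50 mg/kg. Each compound, dissolved in DMSO, was given to 3 frogs once a day on 2 days, and control frogs received DMSO alone on the same schedule. Livers were taken 24 h after the second injection. The labels give no strain or age and do not state the number of control frogs. Each group's RNA was combined into 1 pool and hybridised to 1 Affymetrix array, so the spread between frogs was not measured, no difference below has a replicate error and none was tested.

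Most plasma proteins of the complement and clotting systems are made by hepatocytes. Complement is a cascade of proteases and pore-forming proteins. C1q or lectins bind a surface, and C2 and C4 are cut by proteases bound to them, among them C1s and MASP-2. The resulting enzymes split C3, and the late components build a pore. Coagulation is a second cascade, in which vitamin K dependent proteases activate one another until thrombin cuts fibrinogen to fibrin. Serpins are a family of proteins that mostly trap proteases in an irreversible complex, and several of them hold both cascades in check. These roles are known mainly from mammals.

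All values below are on a log2 scale, as RMA (robust multiarray average) gives them. The highest value was 14.62 with artemisinin, 14.58 with pregnenolone and 14.59 with DMSO, and the medians lay between 5.60 and 5.62. The DMSO array stood apart in markers of exocrine pancreas: 10 of 12 measured copies were at least 2-fold lower on each treated array, and the list summed to 9.01 with artemisinin and 8.73 with pregnenolone, against 13.21 with DMSO (log2 of the summed linear values). Markers of endothelial, stellate and smooth muscle cells were also lower, by at least 1.5-fold for 8 of 11 copies with artemisinin and for 5 of 11 with pregnenolone. Hepatocyte markers summed to 15.41 with artemisinin, 15.36 with pregnenolone and 15.33 with DMSO over 9 copies of 6 of the 9 genes listed; by single copies, artemisinin gave 2 higher and 0 lower at 1.5-fold, and pregnenolone 1 higher and 3 lower. Erythrocyte markers were at least 1.5-fold lower with artemisinin for 5 of 7 copies, against pregnenolone (median -0.77) as against DMSO, and for 2 of 7 with pregnenolone against DMSO. The erythrocyte list summed to 15.34 with artemisinin, 15.51 with pregnenolone and 15.44 with DMSO. Such linear sums mostly follow the copies with the highest values. For hepatocytes these were tf.S, apoa1.S and tf.L, and for erythrocytes hbg1.L and hba1.S. The values of hbg1.L (14.53 with artemisinin, 14.58 with pregnenolone and 14.56 with DMSO) lay near the highest on the arrays. The part of probe saturation in the sums was not tested. The comparison of artemisinin with pregnenolone does not use the DMSO array, but it does hold that erythrocyte difference. It also holds hepatocyte marker differences, with 4 of 9 copies at least 1.5-fold higher with artemisinin and 2 lower. The endothelial, stellate and smooth muscle list had 0 of 11 copies called there, with a median of -0.32. What part these markers had in the results was not tested, and in pooled tissue fewer cells of a type and less RNA per cell cannot be told apart.

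The pregnenolone array held the lowest value for most of the 53 gene copies. It was lowest for 42 of 53 (79.2%), against 20.8% of all gene copies and 31.2% of the 976 gene copies with a mean of at least 10. With pregnenolone against DMSO, 14 of 53 copies (26.4%) were at least 1.5-fold lower and 0 were at least 1.5-fold higher. Among all gene copies 3.75% were lower and 4.64% higher by that measure, and among those with a mean of at least 10, the shares were 8.71% and 6.56%. At 2-fold, 6 copies were lower (background 1.06%) and 0 higher (1.44%). The median log2 difference was -0.34 over the 53 copies and 0.00 over all gene copies. With artemisinin against DMSO, 3 copies (5.66%) were at least 1.5-fold lower and 2 (3.77%) at least 1.5-fold higher, against backgrounds of 2.26% and 2.35%, and the median was -0.04; at 2-fold, 0 were higher or lower, against backgrounds of 0.947% and 0.557%. Of the 36 copies with a mean of at least 10, 11 (30.6%) were at least 1.5-fold lower with pregnenolone. With artemisinin 2 of the 36 were higher and 1 lower, against 2.77% and 2.97% of gene copies at that level. Both comparisons share the DMSO array.

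**Figure D1:**
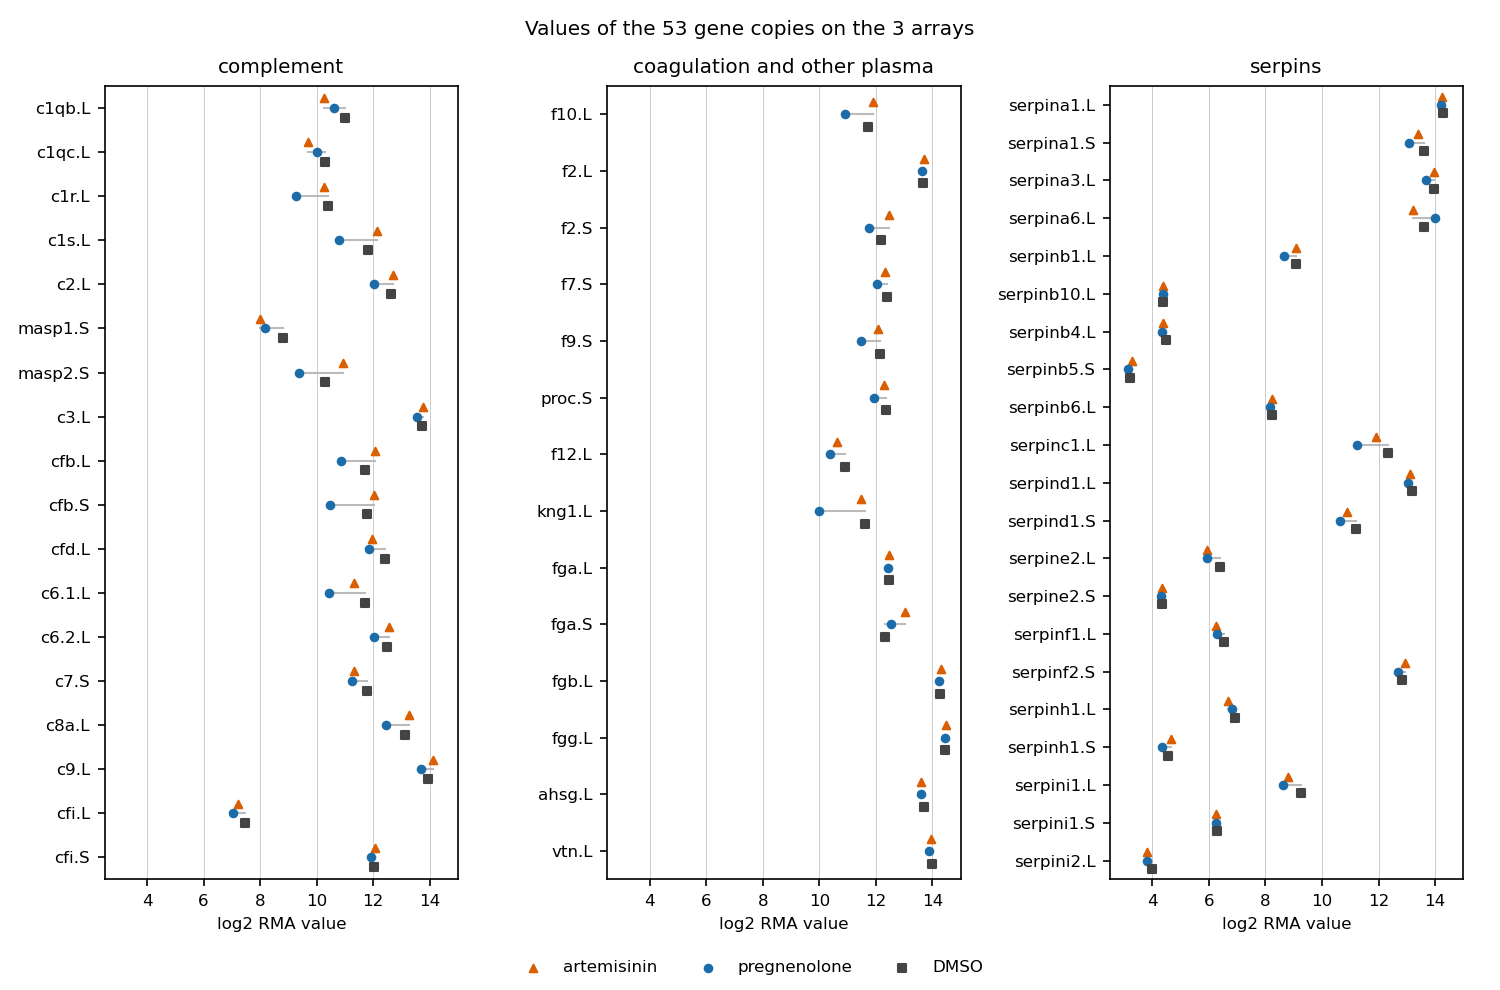
Log2 RMA value (x axis) of each of the 53 gene copies (rows) on the artemisinin, pregnenolone and DMSO arrays, with a grey line joining the lowest and highest value; each point is 1 array of pooled RNA. Circles for pregnenolone lie furthest left in 42 rows. Near the top of the scale the points of fgg.L, fgb.L, vtn.L and serpina1.L almost coincide, while those of fga.S and serpina6.L lie apart.

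The shift with pregnenolone was described for each of the 3 groups of genes. The shares at least 1.5-fold lower were 3.75% of all gene copies and 8.71% of those with a mean of at least 10. By any amount, 4137 of 11303 gene copies were below DMSO, 4404 above and 2762 equal to it. At a mean of at least 10, 426 of 976 were below DMSO. For complement the median difference was -0.57, with all 18 copies below DMSO and 8 of 18 (44.4%) at least 1.5-fold lower. For coagulation and other plasma proteins it was -0.23, with 13 of 14 copies below DMSO and 3 (21.4%) at least 1.5-fold lower. For serpins it was -0.16, with 19 of 21 below DMSO and 3 (14.3%) at least 1.5-fold lower. The 8 serpins with a mean of at least 10 had a median of -0.24, with 2 lower. That was close to the -0.23 of coagulation with the other plasma proteins, but not to the -0.38 without them. The 13 serpins with a mean below 10 had a median of -0.13, with 1 lower. With artemisinin against DMSO the medians were 0.03, -0.03 and -0.07 for the same groups. No test of the difference between the groups was possible with 1 array each.

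**Figure D2:**
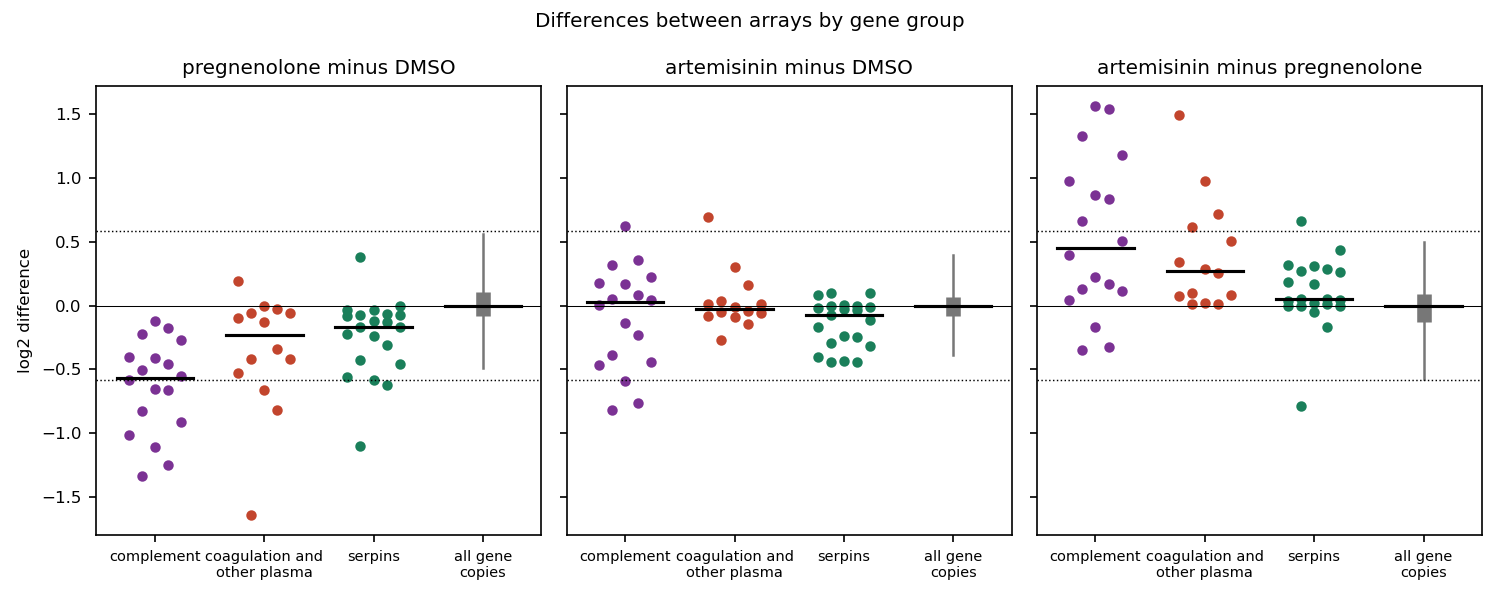
Log2 difference between arrays (y axis) for each complement, coagulation or serpin gene copy (points), with the median of each group as a black bar; the grey bar and line for all 11303 gene copies span the 25th to 75th and the 5th to 95th percentile. Dotted lines mark 1.5-fold. With pregnenolone minus DMSO the 18 complement points all lie below 0, while with artemisinin minus DMSO they lie on both sides.

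Among the genes that start complement, 4 of 7 were at least 1.5-fold lower with pregnenolone, against 3.75% of all gene copies. These 4 encode proteases, and the other members are the protease gene c2.L and the C1q subunits. The classical pathway proteases c1r.L and c1s.L, whose products sit together in the C1 complex and whose genes are direct neighbours in the RefSeq gene table, were both lower on the pregnenolone array. The value of c1r.L (Entrez gene 444745) was 10.26 with artemisinin, 9.29 with pregnenolone and 10.40 with DMSO, so that pregnenolone was 2.16-fold below DMSO (-1.11) and artemisinin within 1.5-fold of it (-0.13). For c1s.L (733422) the values were 12.13 with artemisinin, 10.81 with pregnenolone and 11.82 with DMSO, 2.02-fold lower with pregnenolone (-1.01) and 0.31 higher with artemisinin. The only probe set of c1s.L carries a mark of the array maker and is left out where marked probe sets are removed. For both genes the pregnenolone array was the one that stood apart. The gene c2.L (734198), for the protease that C1s cuts, stood at 12.71 with artemisinin, 12.04 with pregnenolone and 12.62 with DMSO, and its difference of -0.58 with pregnenolone lay just short of 1.5-fold.

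The proteases of the lectin pathway, which take the place of C1r and C1s when lectins find their sugars, differed from each other. The gene masp2.S (373654), for the protease that cuts C4 and C2, had values of 10.93 with artemisinin, 9.39 with pregnenolone and 10.31 with DMSO. It was thus 1.54-fold higher than DMSO with artemisinin (0.62) and 1.88-fold lower with pregnenolone (-0.91). The gene masp1.S (398413), for the protease that activates MASP-2, was lower with both compounds, at 7.99 with artemisinin (-0.82, 1.77-fold) and 8.16 with pregnenolone (-0.65, 1.57-fold), against 8.81 with DMSO. Here the DMSO array was the one that stood apart. The gene table also lists masp3b among the synonyms of masp1.S, and which product of the gene its probe set reports was not checked.

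Subunits of C1q, the part of C1 that recognises antibody, were lowest with artemisinin. C1q is made largely by macrophages in mammals. The value of c1qb.L (444263) was 10.25 with artemisinin, 10.60 with pregnenolone and 11.02 with DMSO, and that of its neighbour c1qc.L (443602) was 9.69, 10.01 and 10.28 in the same order. With artemisinin they were 1.70-fold (-0.76) and 1.51-fold (-0.60) below DMSO, and with pregnenolone they differed by -0.42 and -0.27. These are 2 of the 3 copies of the whole set that were called lower with artemisinin, the other being masp1.S. The 3 copies are 5.66% of the set, against 2.26% of all gene copies. At a mean of at least 10 it was 1 of 36 (2.78%), against 2.97%. Beside them, the leukocyte list (5 copies of 4 of the 10 genes fixed) summed to 12.13 with artemisinin and 12.05 with pregnenolone, against 12.41 with DMSO. Its genes for the invariant chain, cd74.L and cd74.S, differed by -0.47 and -0.35 with artemisinin and by -0.38 and -0.37 with pregnenolone, while lyz.L, for lysozyme, was 0.11 above DMSO with artemisinin. Its lowest member, ptprc.L, stood at 3.55 with artemisinin, 3.33 with pregnenolone and 3.55 with DMSO, under the median probe set. The remaining copy, coro1a.S, was 0.12 above DMSO with artemisinin and equal to it with pregnenolone. Of the 5 leukocyte copies, 3 were above DMSO with artemisinin (median 0.00) and 4 below it with pregnenolone (median -0.34). With either compound 0 of them were called. The part of leukocytes in the C1q values was not tested.

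The alternative pathway amplifies complement on any unprotected surface, and 2 of its 3 copies measured, both of factor B, were at least 1.5-fold lower with pregnenolone, against 3.75% of all gene copies. Factor B is the protease of its C3-cutting enzyme and factor D the protease that activates factor B. Both copies of the factor B gene were lower: cfb.S (373577) stood at 12.02 with artemisinin, 10.46 with pregnenolone and 11.80 with DMSO, and cfb.L (397725) at 12.05 with artemisinin, 10.87 with pregnenolone and 11.70 with DMSO. Pregnenolone was 2.53-fold (-1.34) below DMSO for cfb.S and 1.77-fold (-0.83) below for cfb.L, whereas artemisinin was above DMSO by 0.22 and 0.35. The factor D gene cfd.L (494791) was lower with both compounds by less than 1.5-fold, at 11.97 with artemisinin (-0.44) and 11.86 with pregnenolone (-0.55), against 12.41 with DMSO. C3, on which all pathways converge, barely differed: c3.L (398666) was at 13.78 with artemisinin, 13.56 with pregnenolone and 13.73 with DMSO.

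The measured genes of the terminal pore, which C6, C7, C8 and C9 build in membranes, were all below DMSO with pregnenolone. No probe set had the symbol c8b or c8g. Of all gene copies with a mean of at least 10, 426 of 976 were below DMSO. Of the 5 copies of the pore, 2 were at least 1.5-fold lower, against 3.75% of all gene copies and 8.71% of those with a mean of at least 10. The largest difference was for c6.1.L (432346), at 11.32 with artemisinin, 10.45 with pregnenolone and 11.70 with DMSO, 2.38-fold lower with pregnenolone (-1.25) and -0.38 with artemisinin. A neighbouring gene with the same root symbol, c6.2.L (379126), stood at 12.55 with artemisinin, 12.05 with pregnenolone and 12.50 with DMSO, and differed by -0.46 and 0.05 from DMSO with pregnenolone and artemisinin. The pair thus differed in size with pregnenolone and in sign with artemisinin. The gene c8a.L (443975), for a chain of C8, was at 13.28 with artemisinin, 12.45 with pregnenolone and 13.11 with DMSO, 1.58-fold lower with pregnenolone (-0.66).

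The gene c7.S (432189) was lower by similar amounts with both compounds, at 11.31 with artemisinin (-0.47) and 11.27 with pregnenolone (-0.51), against 11.78 with DMSO. Its second probe set gave -0.60 and -0.59. For c9.L (379504), whose product lines the pore, the values were 14.11 with artemisinin, 13.71 with pregnenolone and 13.93 with DMSO. Factor I is a regulator of complement, the protease that destroys active C3 and C4 fragments. Its copy cfi.S (379108) varied little, at 12.05 with artemisinin, 11.92 with pregnenolone and 12.04 with DMSO, and cfi.L (399318) was at 7.23 with artemisinin, 7.06 with pregnenolone and 7.46 with DMSO.

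Among the clotting factors the largest difference was in the contact phase, where factor XII and kininogen set off clotting on charged surfaces and kininogen releases the peptide bradykinin. The kininogen gene kng1.L (494833) stood at 11.48 with artemisinin and 9.99 with pregnenolone, against 11.62 with DMSO. It was 3.12-fold lower than DMSO with pregnenolone (-1.64), the largest difference of all 53 copies in that comparison, and -0.14 with artemisinin. The factor XII gene f12.L (100037012) was at 10.64 with artemisinin, 10.38 with pregnenolone and 10.91 with DMSO, within 1.5-fold in both comparisons (-0.27 with artemisinin and -0.53 with pregnenolone). A second f12.L probe set, with values between 5.85 and 6.21, gave -0.37 with artemisinin and -0.05 with pregnenolone.

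The measured copies for vitamin K dependent proteases were all below DMSO with pregnenolone. Of all gene copies with a mean of at least 10, 426 of 976 were below DMSO. Of the 6 protease copies, 2 were at least 1.5-fold lower, against 3.75% of all gene copies and 8.71% of those with a mean of at least 10. Factor X, which forms thrombin, was encoded by f10.L (398778), with values of 11.89 with artemisinin, 10.91 with pregnenolone and 11.73 with DMSO, a 1.76-fold lower value with pregnenolone (-0.82) and 0.16 with artemisinin. Factor IX, whose loss causes haemophilia B in humans, was encoded by f9.S (100049721), with 12.09 with artemisinin, 11.48 with pregnenolone and 12.14 with DMSO, 1.58-fold lower with pregnenolone (-0.66). A second f9.S probe set gave a larger difference with pregnenolone, -0.95, and -0.25 with artemisinin. Factor VII, which starts clotting with tissue factor (f7.S, 444394), differed by -0.34 with pregnenolone and -0.06 with artemisinin, and protein C, an enzyme that shuts clotting down (proc.S, 380116), by -0.42 and -0.08. Both stayed within 1.5-fold of DMSO.

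The copies with the prothrombin symbol did not move alike. The gene f2.L (443652) varied by no more than 0.07 over the 3 arrays, at 13.70 with artemisinin, 13.62 with pregnenolone and 13.68 with DMSO. The gene f2.S (446352) was at 12.47 with artemisinin, 11.75 with pregnenolone and 12.17 with DMSO, a difference from DMSO of 0.30 with artemisinin and -0.42 with pregnenolone. The gene table lists lpa as a synonym of f2.S, and whether its probe set measures prothrombin was not checked against sequence.

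Fibrinogen, the protein of the clot, stayed close to DMSO with pregnenolone. Of its 4 copies 0 were called, against 3.75% of all gene copies lower and 4.64% higher. Its gamma and beta chain genes fgg.L (380331) and fgb.L (397825) had values of 14.47 and 14.32 with artemisinin, 14.45 and 14.22 with pregnenolone and 14.45 and 14.28 with DMSO. The alpha chain gene fga.L (398654), which lies between them in the gene table, was at 12.45 with artemisinin, 12.44 with pregnenolone and 12.47 with DMSO. The copy fga.S (380021) was highest with artemisinin, at 13.04, then 12.53 with pregnenolone and 12.34 with DMSO. It was 1.62-fold above DMSO with artemisinin (0.70). The set had 2 copies called higher there (3.77%, against 2.35% of all gene copies), the other being masp2.S. Only fga.S of the 53 had its lowest value on the DMSO array, against 18.7% of all gene copies. Among the other plasma proteins, vtn.L (445877) for vitronectin and ahsg.L (734666) for fetuin-A were below DMSO by 0.13 or less in both comparisons, at levels between 13.59 and 14.00.

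The serpins split by level. Of 21 copies, 8 had a mean of at least 10 and 6 lay under the median probe set of 5.61, low on the scale of these arrays. Antithrombin, the main inhibitor of thrombin and factor X, differed most: serpinc1.L (379771) was at 11.91 with artemisinin and 11.24 with pregnenolone, against 12.35 with DMSO, 2.15-fold lower with pregnenolone (-1.10) and -0.44 with artemisinin. Both treated arrays lay below DMSO, the pregnenolone array by more. Heparin cofactor II, another thrombin inhibitor, had serpind1.S (495373) at 10.89 with artemisinin, 10.62 with pregnenolone and 11.21 with DMSO, which put it just past 1.5-fold with pregnenolone (-0.59). Its copy serpind1.L (380511) stayed within 0.12 of DMSO.

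Antitrypsin, the abundant inhibitor of neutrophil elastase, had serpina1.S (379963) at 13.38 with artemisinin (-0.24) and 13.06 with pregnenolone (-0.56), against 13.62 with DMSO. Its copy serpina1.L (397792) was at 14.26 with artemisinin, 14.21 with pregnenolone and 14.29 with DMSO. The gene serpina3.L (495377), named for antichymotrypsin, was at 13.95 with artemisinin, 13.66 with pregnenolone and 13.97 with DMSO. The antiplasmin gene serpinf2.S (447645), which protects clots from plasmin, had 12.93 with artemisinin, 12.67 with pregnenolone and 12.84 with DMSO. For antiplasmin the 2 probe sets disagreed.

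A single gene copy of the set was highest on the pregnenolone array. This was serpina6.L (373636), at 13.22 with artemisinin and 14.00 with pregnenolone, against 13.62 with DMSO. It was 0.38 above DMSO with pregnenolone and -0.40 with artemisinin, both within 1.5-fold, and 1.72-fold lower with artemisinin than with pregnenolone (-0.79). In mammals the symbol stands for corticosteroid-binding globulin, the plasma carrier of cortisol. The gene table lists for the frog gene the synonyms ep45, pNiXa and seryp. Ep45 is known from Xenopus as a liver serpin whose synthesis oestrogen raises. Its direct neighbour in the gene table is serpina3.L, which differed from DMSO by -0.31 with pregnenolone and -0.02 with artemisinin.

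Among the 13 serpins with a mean below 10, only serpini1.L differed from DMSO by at least 1.5-fold, with pregnenolone. The elastase inhibitor serpinb1.L (734432), a leukocyte protein in mammals, was at 9.07 with artemisinin, 8.64 with pregnenolone and 9.07 with DMSO. The gene serpini1.L (734183), for neuroserpin, an inhibitor of tissue plasminogen activator, was at 8.81 with artemisinin (-0.44) and 8.63 with pregnenolone (-0.62, 1.54-fold lower), against 9.25 with DMSO, so that both treated arrays were lower. Also lower on both were serpine2.L (446824), for the thrombin inhibitor protease nexin, with differences of -0.44 with artemisinin and -0.46 with pregnenolone, and serpinf1.L (444412), for the pigment epithelium-derived factor, with -0.29 and -0.24. The collagen chaperone gene serpinh1.L (100158395) differed by -0.25 with artemisinin and -0.08 with pregnenolone, but its 2 further probe sets gave 0.10 and 0.00 with artemisinin. The .S copies did not share the lower values with artemisinin: serpine2.S equalled DMSO and serpinh1.S was 0.08 above it. With pregnenolone they differed by -0.03 and -0.22, and both lay under the median probe set. In mammals serpine2, serpinf1 and serpinh1 are expressed by stromal cells, though not by these alone. The endothelial, stellate and smooth muscle list was lower on the same arrays, with a median of -0.79 with artemisinin and -0.56 with pregnenolone over 11 copies of 8 of the 11 genes fixed. Its part in these values was not tested.

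Of the others, serpinb6.L (379476) was at 8.22 with artemisinin, 8.16 with pregnenolone and 8.23 with DMSO. The copies serpini1.S and serpine2.S and the genes serpinb4.L, serpinb5.S, serpinb10.L and serpini2.L were within 0.17 of DMSO on both treated arrays, and serpinh1.S within 0.22. The gene serpinb10.L had the same value, 4.39, on all arrays. Identical values on 2 or more arrays occurred for 4 of the 53 copies and for 39.8% of all gene copies. The gene serpini2.L, named in mammals for a serpin of the pancreas, was at 3.81 with artemisinin, 3.81 with pregnenolone and 3.98 with DMSO, low on the scale of every array.

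The copies called lower with pregnenolone had values in the middle and upper part of the scale, but not at its top. None of the 12 copies with a mean of at least 13 was called in either comparison with DMSO, and their differences with pregnenolone ran from -0.56 to 0.38. These 12 include fgg.L, fgb.L, serpina1.L and vtn.L, whose values lay near the highest on the arrays, and the part of probe saturation in their small differences was not tested. Of all 140 gene copies at that level, 3 (2.14%) were called lower with pregnenolone. Among these 3 were hrg.L (-0.88) and c4a.L (-0.82), genes of the same systems outside the symbol rule. Among the 24 copies with means from 10 to 13, 11 (45.8%) were at least 1.5-fold lower with pregnenolone, against 9.81% of the 836 gene copies in that band, and the medians were -0.57 and 0.00. Of the 7 copies between 7 and 10, 3 were lower, against 4.86% of 4070, and of the 10 copies under 7, 0 were lower, against 2.25% of 6257. The bands were set after the values had been seen, and values of different probe sets do not compare the amounts of different transcripts.

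**Figure D3:**
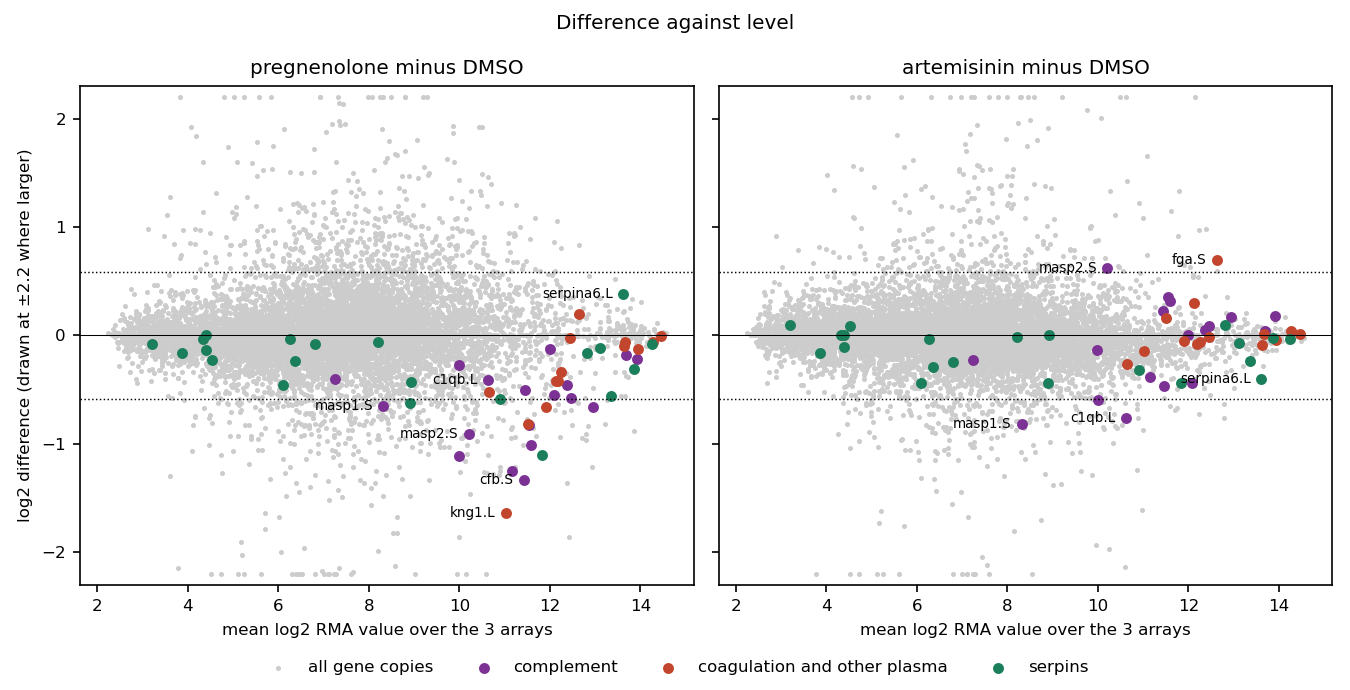
Log2 difference from DMSO (y axis) against the mean log2 RMA value over the 3 arrays (x axis) for pregnenolone (left) and artemisinin (right); grey points are all gene copies, drawn at 2.2 or -2.2 where larger, and dotted lines mark 1.5-fold. With pregnenolone 23 of the 24 coloured points between 10 and 13 lie below 0, down to -1.64 for kng1.L, within the range of the grey points. Of all 836 gene copies in that band, 377 lie below 0. Above 13 the coloured points run from -0.56 to 0.38, the latter for serpina6.L.

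For 9 genes both the .L and the .S copy were measured. With pregnenolone against DMSO the copies had the same sign in 8 of 9 pairs, and with artemisinin against DMSO in 5 of 9. With pregnenolone 50 of the 53 copies were below DMSO, and the share of same-sign pairs over the whole array was not counted. A copy equal to DMSO, as serpine2.S was with artemisinin, counted as not sharing the sign. With artemisinin cfi.S was above DMSO by only 0.01. The gap between copies had a median of 0.42 with pregnenolone, with the largest for serpini1 (0.58) and cfb (0.51), and of 0.29 with artemisinin, with the largest for fga (0.71). The factor B pair was the only 1 of the 9 with both copies called lower with pregnenolone. With both compounds the .S copy lay further from DMSO for f2, fga, serpina1 and serpind1, and the .L copy for cfi, serpine2 and serpini1. Near-identical copies can share probes, which makes it uncertain to which of them a signal belongs.

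**Figure D4:**
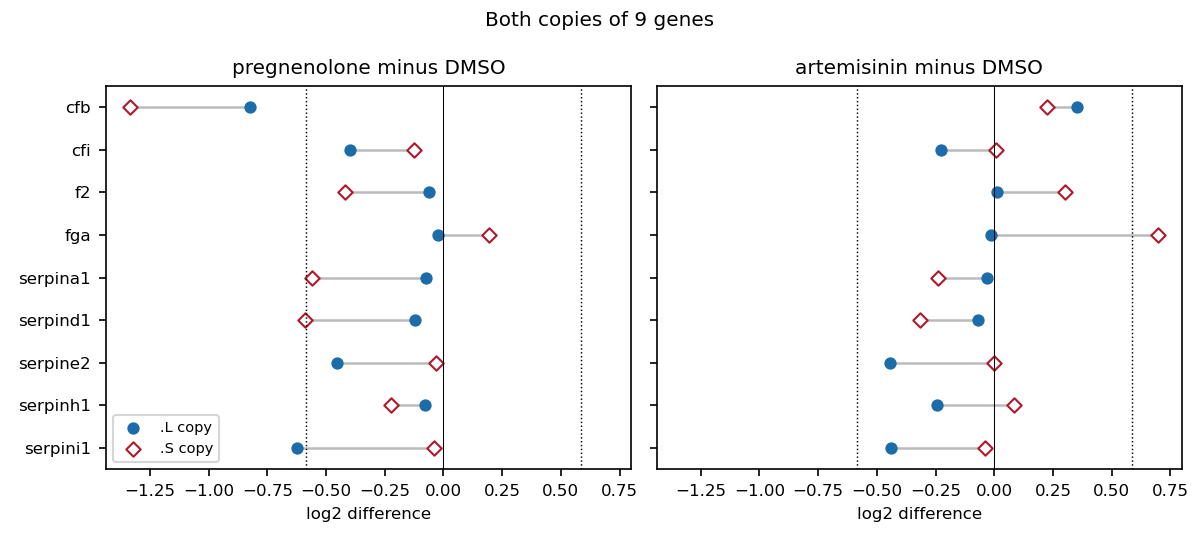
Log2 difference from DMSO (x axis) of the .L copy (filled circles) and the .S copy (open diamonds) of 9 genes, joined by a line, for pregnenolone (left) and artemisinin (right), with 1.5-fold as dotted lines. Both cfb copies lie left of the dotted line with pregnenolone, and only fga.S lies right of it with artemisinin.

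A further 9 probe sets, for 8 of the copies, gave a check on technical spread. The differences of probe sets of 1 gene copy had a pooled SD of 0.27 for pregnenolone minus DMSO and 0.22 for artemisinin minus DMSO. This came from 1289 gene copies with more than 1 probe set at or above the median probe set of 5.61. It does not cover lower probe sets and leaves out variation between frogs and arrays. The choice of probe set changed a call against DMSO for antiplasmin and for C7. The second probe set of c7.S, at 10.32 with artemisinin, 10.32 with pregnenolone and 10.91 with DMSO, put both compounds just past 1.5-fold lower, where the one used did not. The array maker marks the probe sets used for serpinf2.S, c7.S and serpina1.L as able to bind several transcripts. For antiplasmin (serpinf2.S) the marked probe set gave -0.16 with pregnenolone. The unmarked one gave -0.86, at 12.20 with artemisinin and 11.33 with pregnenolone, against 12.18 with DMSO. With artemisinin they gave 0.10 and 0.01. For serpina1.L the second probe set gave -0.10 with pregnenolone and -0.05 with artemisinin, close to the first. For c9.L it gave -0.05 with pregnenolone and 0.19 with artemisinin.

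Artemisinin and pregnenolone were then compared with each other. The doses differ, at 200 and 50 mg/kg, and the comparison shares the pregnenolone array with the first one, so it is no independent repeat. With artemisinin, 13 of 53 copies (24.5%) were at least 1.5-fold higher than with pregnenolone, against 3.89% of all gene copies, and 1 (1.89%), serpina6.L, was lower, against 4.86%. At 2-fold, 5 were higher (background 1.4%) and 0 lower (1.23%). Of the 36 copies with a mean of at least 10, 12 (33.3%) were at least 1.5-fold higher and 1 lower, against 7.68% and 8.4% of gene copies at that level. The 13 comprise 8 of complement, 4 of coagulation and serpinc1.L. The largest differences were 2.95-fold for cfb.S (1.56), 2.90-fold for masp2.S (1.54), 2.82-fold for kng1.L and 2.51-fold for c1s.L (1.33). They were followed by cfb.L at 2.27-fold (1.18), f10.L and c1r.L each at 1.97-fold (0.98), c6.1.L at 1.83-fold (0.87), c8a.L at 1.78-fold (0.83) and f2.S at 1.65-fold (0.72). The smallest of the 13 were c2.L (0.66), serpinc1.L (0.66) and f9.S (0.61). Above 0 in this comparison were 4278 of 11303 gene copies, and 388 of the 976 with a mean of at least 10. The 14 coagulation and plasma protein copies all had values above 0, but ahsg.L and fga.L only by 0.01. Centring the arrays on their medians put these 2 just below 0, quantile normalization put fga.L at -0.04, and the mean of its probe sets put f12.L at -0.03. Among complement genes c1qb.L (-0.35), c1qc.L (-0.33) and masp1.S (-0.17) were lower.

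A list of 47 other genes of the same systems, outside the symbol rule, had 21 copies of 20 genes on the array. With pregnenolone 0 of 21 were at least 1.5-fold higher and 6 (28.6%) lower, against 4.64% and 3.75% of all gene copies, and the median difference was -0.07. With artemisinin 2 (9.52%) were lower and 0 higher, against 2.26% and 2.35%, around a median of 0.05. The 6 lower with pregnenolone began with klkb1.L, for plasma prekallikrein, which cleaves kininogen and activates factor XII. It stood at 11.03 with artemisinin, 9.87 with pregnenolone and 10.97 with DMSO, a difference of -1.10 with pregnenolone and 0.06 with artemisinin. The others were the protease trap a2m.S (-0.95 with pregnenolone and -0.04 with artemisinin), the histidine-rich glycoprotein gene hrg.L (-0.88 and -0.13), the fourth complement component c4a.L (-0.82 and 0.15), the pore inhibitor clu.L (-0.77 and 0.21) and colec11.L (-0.69 and -1.37). Of these 6, only colec11.L was at least 1.5-fold lower with both compounds.

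The gene colec11.L encodes a collectin, a soluble lectin that recruits the MASP proteases. It was at 8.51 with artemisinin and 9.19 with pregnenolone, against 9.88 with DMSO. The arrays had the same order for masp1.S, c1qb.L and c1qc.L, and also for serpinf1.L and serpinh1.L. The share of all gene copies with this full order was not counted. The artemisinin array was lowest for 6 of the 53 copies (11.3%), fewer than the 20.7% of all gene copies. Of all gene copies, 39.8% had identical values on some arrays and no single lowest array. At a mean of at least 10 the artemisinin array was lowest for 2 of 36 copies (5.56%), against 40.5% of gene copies at that level. The shared order was thus not taken as a link between these genes. The ficolin gene fcn1.L, for another such lectin, differed by -0.48 with artemisinin and by -0.03 with pregnenolone. Properdin, which stabilises the alternative pathway enzyme, was encoded by cfp.L, with 0.41 with artemisinin and -0.50 with pregnenolone. The genes for the vitamin K enzymes ggcx.L and vkorc1.S, on which the clotting proteases depend, differed by no more than 0.06 from DMSO. The clotting inhibitor gene tfpi2.L, at 4.52 with artemisinin (-0.80), 5.23 with pregnenolone and 5.32 with DMSO, lay under the median probe set.

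**Figure D5:**
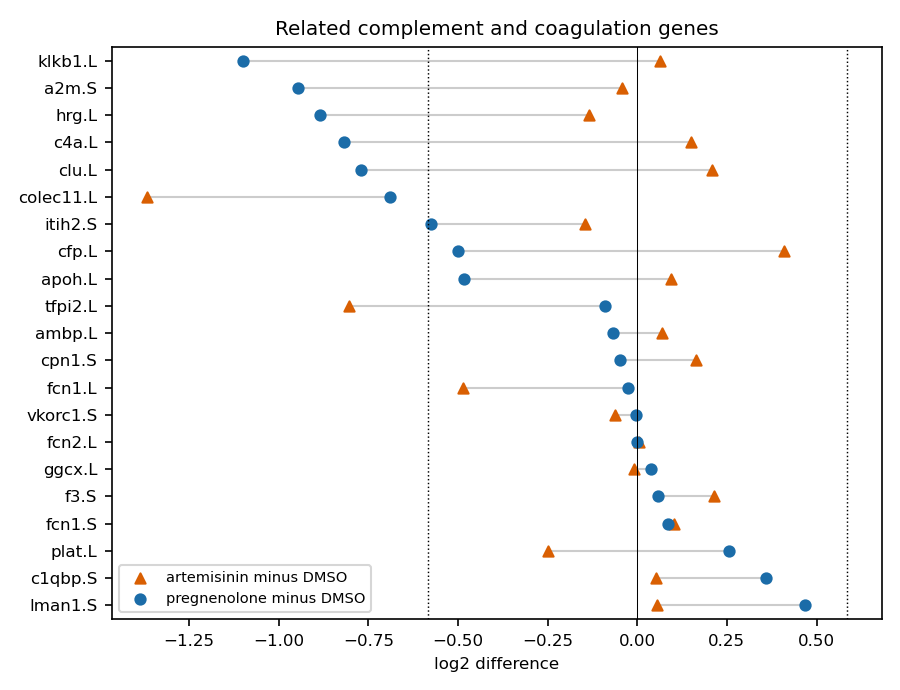
Log2 difference from DMSO (x axis) of 21 copies of related complement and coagulation genes (rows, ordered by the pregnenolone value), with triangles for artemisinin and circles for pregnenolone and dotted lines at 1.5-fold. For the first 5 rows, from klkb1.L at -1.10 to clu.L at -0.77, the circles lie left of the dotted line and the triangles near 0, while colec11.L is left of it for both.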

How the data were processed

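The labels name 3 arrays of pooled liver RNA, 1 each for artemisinin, pregnenolone and DMSO. The deposited values are log2 expression values that the authors made with RMA, per the submitters' processing notes; the version is not given, and base 2 follows from RMA's definition and the values' range, since no label states it. RMA makes the arrays' distributions alike. Of 32635 probe sets, 96 were controls, 15495 had 1 symbol, 279 several and 16765 none; no probe set with several symbols matched the rule, and all 53 members were found in the RefSeq gene table by Entrez identifier, with unchanged symbols. Genes of the rule with no matching symbol were not analysed here, among them c1qa, c5, c8b, c8g, cfh, pros1, f5, f8, f11 and plg. Differences of log2 values, counts at 1.5-fold and medians were computed with pandas 2.3.3; no test was possible. Members were described by their array values, by their differences from DMSO or by a range. The 6 largest differences per group with DMSO, the 3 largest between compounds and the 4 highest levels were to be named. So were both copies of paired genes and members with discordant probe sets. The members and lists were chosen with earlier results of these data known. Steps were tested on simulated data. Alternatives were the fold threshold, level filters, the mean of probe sets, removal of marked probe sets, median centring, quantile normalization, a loess trend (statsmodels 0.14.6, span 0.3) and updated symbols. The number of arrays limits the precision.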

Additional observations from a re-analysis of the deposited data

How the results depend on the processing

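At 2-fold in place of 1.5-fold, 6 of the 53 copies were lower and 0 higher with pregnenolone against DMSO, 0 were lower and 0 higher with artemisinin against DMSO, and 5 were higher and 0 lower with artemisinin against pregnenolone. With gene copies of a mean of at least 10 alone, a limit chosen after seeing the data, 1 was at least 1.5-fold lower with artemisinin against DMSO. Under the other alternatives every count stayed within 1.5 times its value, and over all alternatives 6 to 16 copies were lower and 0 higher with pregnenolone against DMSO. The median over all members ran from -0.42 to -0.33 for pregnenolone against DMSO, from -0.05 to 0.00 for artemisinin against DMSO and from 0.17 to 0.29 for artemisinin against pregnenolone. Removing marked probe sets left 51 copies, since c1s.L and fga.L have no other probe set. No member called at 1.5-fold changed sign under any alternative run in which it had a value. For serpinf2.S the pregnenolone difference was -0.51 as the mean of its probe sets and -0.86 without the marked one. No paired analysis was possible because each group is 1 array. With no detection calls, how close values under the median probe set lie to background is not known.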

Other observations

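Liver regulators of plasma protein genes were measured in 9 copies of 6 of 8 genes listed. The genes socs3.L and socs3.S, for a feedback inhibitor of cytokine signalling, were at 6.53 and 6.76 with artemisinin and at 5.47 and 6.12 with pregnenolone, against 4.68 and 5.41 with DMSO. They were therefore above DMSO by 1.85 and 1.35 with artemisinin and by 0.79 and 0.71 with pregnenolone, from DMSO values under the median probe set. The copies of il6st, for the shared receptor chain of the interleukin 6 family, differed in sign: il6st.L was at 6.73 with artemisinin, 7.13 with pregnenolone and 7.50 with DMSO, and il6st.S at 7.76, 7.46 and 7.22 in the same order. The transcription factor genes hnf4a.S (0.08 with artemisinin and 0.13 with pregnenolone) and cebpb.L (0.21 and -0.01) stayed within 1.5-fold of DMSO, as did cebpa.L (-0.01 and 0.56) and cebpa.S (-0.39 and -0.33). The probe set of stat3.2.L had the same value, 7.49, on all arrays.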
